A study of Gloeophyllum trabeum with 9 samples.

Results

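Among the 11846 gene models of the brown rot fungus Gloeophyllum trabeum, 106 were set apart by a high level on cellulose with a level on Japanese cedar near that on glucose. They were chosen by their measured values alone. The mean on cellulose had to be no less than 3 times the glucose mean and 2 TPM or more, the cedar mean had to lie between 0.5 and 2 times the glucose mean, and the lowest cellulose value had to exceed the highest cedar and glucose values. Gene models that the study lists by family, and some from its lists of the most upregulated genes, were left out. This removed 3 of the 109 that met these conditions. Because all 3 pairs of carbon sources entered the choice, the levels and ratios of these genes are given as a description, with no test.

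RNA came from mycelium of strain NBRC6430 grown in shaken liquid cultures, with 3 biological replicates and 1 library each for every carbon source. The cellulose and cedar cultures were harvested after 5 days and the glucose cultures after 3 days, so that carbon source and culture time cannot be told apart in comparisons with glucose. Values are TPM, a level corrected for transcript length, rescaled between libraries by the authors. They carry no read counts, so that the number of reads on any gene is unknown.

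Brown rot fungi take the cellulose and hemicellulose out of wood and leave a modified lignin behind. They loosen the wood with small oxidants made outside the cell and then cleave the polysaccharides with secreted enzymes. Microcrystalline cellulose offers this fungus an insoluble glucose polymer alone, whereas cedar wood offers it together with hemicellulose, lignin and extractives. Glucose represses many fungal genes for the use of other carbon sources.

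Names were held for few of these genes. The part of the study's annotation that was used covers 1734 gene models, of which 17 belonged to the 106, and 11 of those carried a name. None of the named ones was a cellulase or another enzyme that cuts plant polysaccharides, many of which the study lists by family and the choice left out. They were a hydrophobin, 2 transporters of the major facilitator superfamily (MFS), a cysteine peptidase, an alpha/beta-hydrolase, a copper-fist domain protein and a 1,3-beta-glucan synthase. Also named were a protein disulfide isomerase and a galactose oxidase-like Kelch protein. A protein grouped with membrane anchor subunits of succinate dehydrogenase and a protein related to an inducer of gluconate transport completed the list. All others are given here by their identifier.

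The ratio of the cellulose mean to the glucose mean had a median of 3.91 over the 106 genes and ran from 3.00 to 28.9. In 57 genes it lay between 3 and 4, in 23 between 4 and 5, in 20 between 5 and 10, in 4 between 10 and 20, and in 2 above 20. On cedar the ratio to glucose had a median of 1.46, with a lowest value of 0.515 and a highest of 1.998. The cedar mean was above the glucose mean in 86 genes and below it in 20. Cellulose stood above cedar by a median of 2.71 times, and by between 1.59 and 40.5 times over the set. Before any ratio, the glucose level of these genes was already high, with a median of 39.7 TPM, against 9.79 TPM over all gene models. Their median level was 158 TPM on cellulose and 51.7 TPM on cedar.

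The description of these genes as not raised on cedar holds only within the limits of the rule. The cedar mean exceeded the glucose mean by 1.5 to 2 times in 48 genes and by 1.25 to 1.5 times in 20, lay within 0.8 to 1.25 times in 29, and was 0.5 to 0.8 times in 9. Every cedar value lay above every glucose value in 62 of the 106 genes, where 36.7% of the 10555 gene models tested showed this, and below in 8 genes, where 34.8% did. In limma's fit of cedar over glucose, 42 genes had a higher level on cedar at a Benjamini-Hochberg adjusted p under 0.01, without a condition on the ratio, and 24.9% of all gene models tested did. With the ratio of at least 2 added, 0 of 106 were called higher, where 15.2% of all were, which the rule itself fixes. The same call was met by 95 of 106 on cellulose over glucose, where 10.4% of 10501 gene models were called, and by 66 of 106 on cellulose over cedar, where 5.95% of 10503 were. All 106 passed the filter on low values in each fit, and the rule used these contrasts, so nothing is read from these counts.

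**Figure D1:**
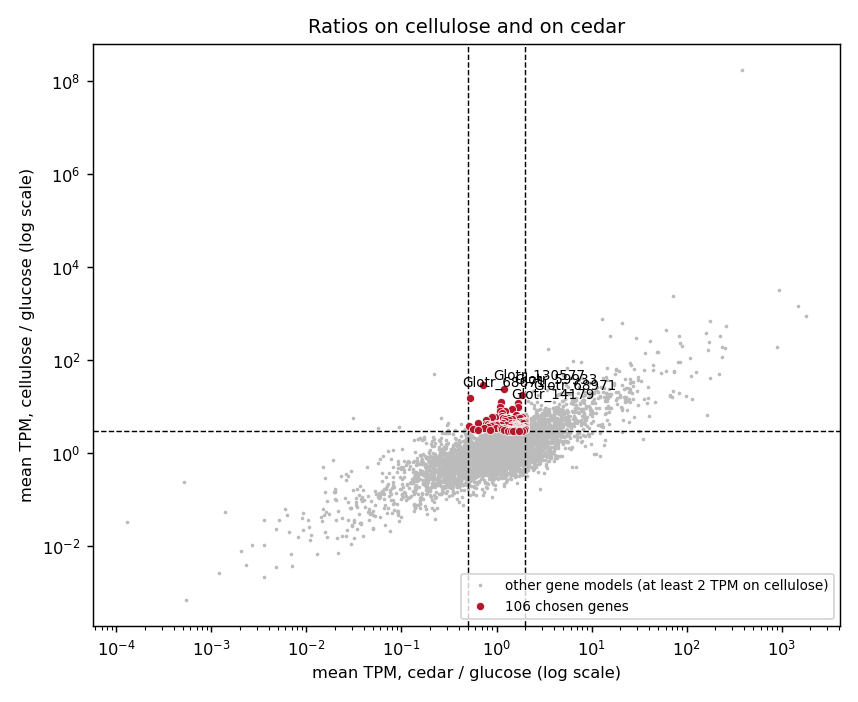
Ratio of mean TPM on cellulose to glucose (vertical, log scale) against that on cedar to glucose (horizontal, log scale) for every gene model with at least 2 TPM on cellulose and a level above 0 on the other carbon sources. The 106 chosen genes (red) fill the space above the dashed line at 3 and between those at 0.5 and 2, and 48 of them lie between 1.5 and 2 on the cedar axis.

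The edges of the set cut through a continuous range of values. Just inside the lower limit of the cellulose ratio lay Glotr_28657 at 3.00, Glotr_114712 at 3.01 and Glotr_113417 at 3.04, and just outside it Glotr_137071 at 2.99, Glotr_138432 at 2.96 and Glotr_60517 at 2.95. At the upper limit on cedar, Glotr_101581, Glotr_110303 and Glotr_139428 lay inside at 2.0, and Glotr_73354, Glotr_111010 and Glotr_33434 lay outside, also at 2.0 after rounding. At the lower limit on cedar, Glotr_113199 lay inside at 0.515, Glotr_68671 at 0.523 and Glotr_13228 at 0.564, with Glotr_71397 outside at 0.468, Glotr_75067 at 0.428 and Glotr_115191 at 0.369. The lowest mean on cellulose inside was 2.19 TPM in Glotr_133941, followed by 4.6 TPM in Glotr_100742 and 5.99 TPM in Glotr_134237, while Glotr_90534 at 1.86 TPM and Glotr_94125 at 0.300 TPM fell outside. The gap between the lowest cellulose value and the highest other value was smallest inside in Glotr_50038 (1.0 times), Glotr_17384 (1.11) and Glotr_126378 (1.18), and Glotr_127305 (0.971), Glotr_60443 (0.961) and Glotr_137034 (0.937) were the nearest outside.

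The size of the set rested on how the libraries were scaled to each other. The deposited values sum to between 1574620 and 1680450 TPM in the cellulose libraries, between 709862 and 899473 TPM in the cedar libraries and between 678148 and 771024 TPM in the glucose libraries. When every library was brought to the same total, the median change on cellulose over glucose of all gene models tested moved to -1.09 on the log2 scale, against -0.09 as deposited, and 9 of the 106 genes still met the rule. These 9 were Glotr_130577, Glotr_59933, Glotr_68971, Glotr_14179, Glotr_141505, Glotr_42824, Glotr_115899, Glotr_24494 and Glotr_139878. Under that scaling the ratio of cellulose to glucose remained above 1 in all 106, at a median of 1.73. Median-of-ratios scaling kept all 106 within the rule and quantile normalization kept 53. Quantile normalization set the ratio of Glotr_134131 and Glotr_50888 to 1.0, because they ranked 1 and 2 in mean level on every carbon source.

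**Figure D2:**
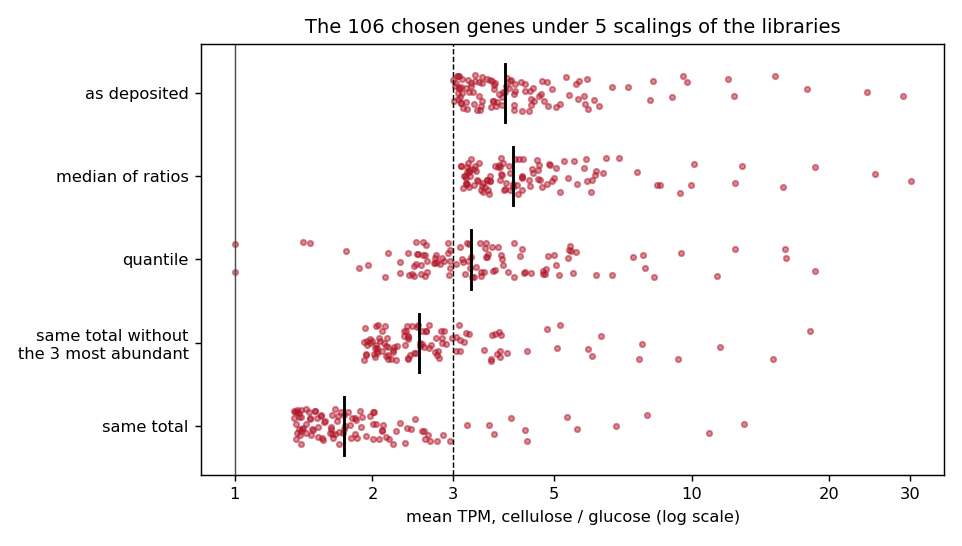
Ratio of mean TPM on cellulose to glucose (horizontal, log scale) of each of the 106 chosen genes (points, spread vertically at random) under 5 scalings of the libraries, with the median as a black bar. The medians are 3.91 as deposited, 4.06 with median-of-ratios scaling, 3.29 with quantile normalization, 2.53 with the same total over all gene models but the 3 most abundant chosen genes, and 1.73 with the same total; the dashed line marks the ratio of 3 that the rule asked for.

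Hydrophobins are small secreted proteins of filamentous fungi that assemble into water-repellent films at the surface of hyphae. Glotr_14179, named a hydrophobin, had 20644, 12549.8 and 6796 TPM in cellulose replicates 1, 2 and 3, against 1669, 429.9 and 1471 TPM on cedar and 932, 1223 and 1073 TPM on glucose. Its cellulose mean was 12.4 times the glucose mean. Every cellulose value stood well above all others, while the cedar and glucose values overlapped and cedar replicate 2 was the lowest of all.

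Glotr_130577, which had the largest ratio of the 106, lies beside it with a gap of 1983 bp in the RefSeq annotation of assembly Glotr1_1. No name was held for it. It had 10224, 7346 and 5099 TPM on cellulose, 211, 109.9 and 238 TPM on cedar and 209, 289 and 286 TPM on glucose. The ratio was 28.9 over glucose and 40.5 over cedar, the largest of the set for either, and with every library at the same total the ratio over glucose was 13.0. Both genes had their order of cellulose replicates in common, with replicate 1 highest and replicate 3 lowest, and both were lowest on cedar in replicate 2. Their annotated lengths are 417 bp for Glotr_14179 and 444 bp for Glotr_130577.

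Glotr_44256, next to Glotr_130577 and named a hydrophobin, fell on cellulose, with 4.26, 10.3 and 4.53 TPM on cellulose, 11.8, 11.5 and 14.2 TPM on cedar and 19.1, 22.7 and 19.4 TPM on glucose. Its log2 fold change over glucose was -1.71 ± 0.32 (SE) at an adjusted p of 0.00449 in limma's fit. That call was lost without any 1 of glucose replicates 1, 2 and 3, without cellulose replicate 1 and with no filter, and limma's adjusted p lay between 0.000109 and 0.0207 across the 17 alternatives. Glotr_44122, the next hydrophobin model along, was listed at 0 in 2 of 3 cellulose libraries and 2 of 3 glucose libraries. The 4 neighbouring models from Glotr_44122 to Glotr_14179 span 7295 bp. On the other side of Glotr_14179, Glotr_139552 rose on cellulose, with 372, 261 and 238 TPM on cellulose, 129, 135 and 120.1 TPM on cedar and 53.5, 56.1 and 61.5 TPM on glucose. Its log2 fold change was 2.31 ± 0.19 (SE) over glucose at an adjusted p of 0.000155, and it rose on cedar as well, by 1.16 ± 0.10 at an adjusted p of 7.2e-05.

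**Figure D3:**
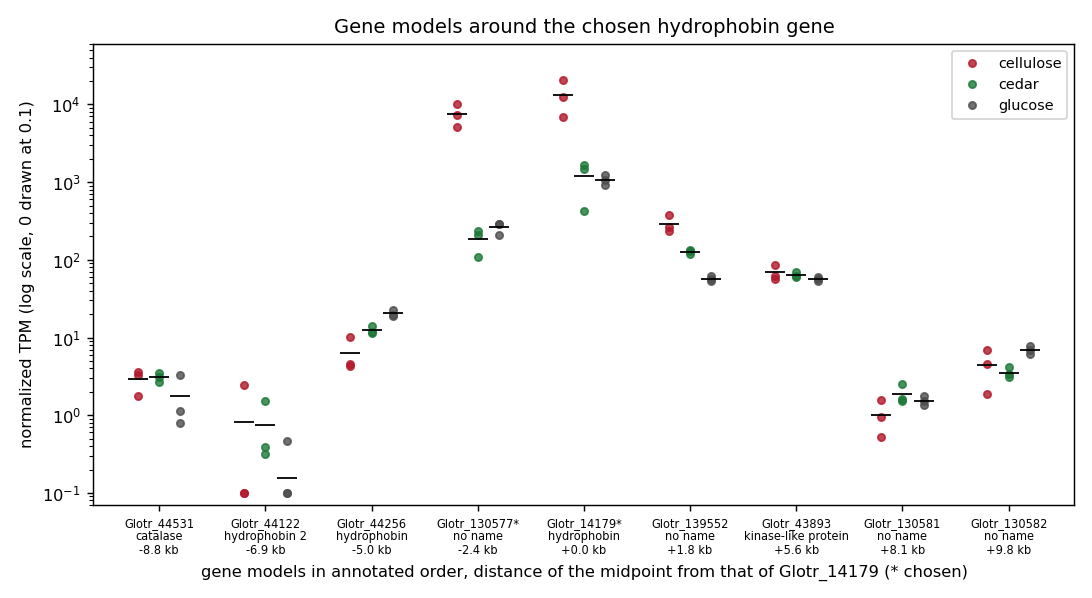
Normalized TPM (vertical, log scale, 0 drawn at 0.1) of 9 gene models in annotated order around Glotr_14179 in the 3 cellulose, 3 cedar and 3 glucose libraries, with the mean of each group as a black bar and the distance in kb below each name. Glotr_130577 and Glotr_14179 stand at 5099 TPM or more in every cellulose library, and Glotr_44256 is highest on glucose.

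Of the 8 hydrophobin models with a held name, 1 was among the 106. Of the 6 others tested by limma on cellulose over glucose, 1 was called higher, where 10.4% of all gene models were, and 3 lower, where 13.9% were. Glotr_18552 rose on cellulose and fell on cedar, which placed it outside the rule. It had 1051, 660.3 and 255 TPM on cellulose, 30.3, 29.5 and 29.3 TPM on cedar and 129.9, 129 and 82.5 TPM on glucose. The log2 fold change was 2.33 ± 0.51 (SE) on cellulose over glucose at an adjusted p of 0.00881, and -1.89 ± 0.18 on cedar over glucose at an adjusted p of 0.00012. The first call was lost in 9 of 17 alternatives, among them leaving out glucose replicate 1, 2 or 3 or cellulose replicate 1 or 2 and the same total, and limma's adjusted p lay between 0.000333 and 0.0629 across them. Glotr_19724 was far higher on glucose, at 2792 ± 1069 TPM on cellulose, 376 ± 61.2 TPM on cedar and 19059 ± 2599 TPM on glucose (SD, n = 3 each). Glotr_13015 fell on cellulose over glucose by 1.35 on the log2 scale at an adjusted p of 0.0018 in limma's fit. The hydrophobin models thus stood in different orders over the carbon sources, and only Glotr_14179 of those named met the rule.

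Glotr_59933 had the second largest ratio. Its values were 1566, 1481 and 275 TPM on cellulose, 72.0, 13.0 and 78.1 TPM on cedar and 52.6, 39.6 and 45.2 TPM on glucose. The ratio over glucose was 24.2, and without cellulose replicate 3 it was 33.3. Cellulose replicate 3 was 0.180 times the mean of the other cellulose replicates, yet still above every cedar and glucose value.

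Glotr_68971 and Glotr_68968 lie side by side with a gap of 190 bp. For Glotr_68971 the values were 1015, 938 and 1188 TPM on cellulose, 79.1, 155 and 91.7 TPM on cedar and 58.6, 58.5 and 58.9 TPM on glucose, a ratio of 17.8 over glucose. Glotr_68968 had 132, 136 and 132 TPM on cellulose, 24.8, 25.5 and 30.8 TPM on cedar and 24.1, 21.4 and 23.1 TPM on glucose, a ratio of 5.82. The replicates of both genes on cellulose and on glucose lay close together, and the cedar values of Glotr_68971 all lay above its glucose values.

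Another side-by-side pair was Glotr_133941 and Glotr_141505, with a gap of 1214 bp, at very different levels. Glotr_141505 had 863, 884 and 1075 TPM on cellulose, 140.2, 111 and 149 TPM on cedar and 72.4, 81.5 and 81.9 TPM on glucose, and its ratio was 12. Glotr_133941 was the weakest of the 106, at 2.35, 3.41 and 0.813 TPM on cellulose, 0.431, 0.261 and 0.188 TPM on cedar and 0.201, 0.300 and 0.311 TPM on glucose, with a ratio of 8.09. The rule chose both genes for their pattern over the carbon sources, and it set no limit on how far their levels could differ.

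Glotr_68671 was also weak, at 27.5, 14.2 and 4.52 TPM on cellulose, 0.127, 0.682 and 0.775 TPM on cedar and 1.45, 0.353 and 1.22 TPM on glucose. Its ratio over glucose was 15.2, or 9.25 without cellulose replicate 1, and its cedar mean was 0.523 times the glucose mean, with overlapping cedar and glucose values. Glotr_24494 was similar in level, at 14.0, 8.32 and 3.95 TPM on cellulose, 1.42, 0.874 and 1.6 TPM on cedar and 1.21, 0.836 and 1.16 TPM on glucose, a ratio of 8.20. In both genes cellulose replicate 1 was the highest and replicate 3 the lowest.

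The ratio was 9.73 for Glotr_42824, which had 1455, 2102 and 1748 TPM on cellulose, 245, 109 and 234 TPM on cedar and 170.3, 214 and 161 TPM on glucose. Glotr_115899 had 95.1, 119.7 and 148 TPM on cellulose, 18.5, 22.9 and 17.5 TPM on cedar and 13.8, 12.2 and 14.0 TPM on glucose, a ratio of 9.05. Glotr_121308 had 191, 226 and 54.3 TPM on cellulose, 32.7, 16.9 and 32.4 TPM on cedar and 18.5, 17.0 and 13.7 TPM on glucose, a ratio of 9.57. Here too cellulose replicate 3 was far below the others for Glotr_121308, whereas for Glotr_115899 it was the highest. Glotr_139878 was the reverse case, with 568, 419 and 1403 TPM on cellulose, 98.1, 166 and 109.8 TPM on cedar and 106, 112 and 112 TPM on glucose, and its ratio of 7.26 became 4.5 without cellulose replicate 3.

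**Figure D4:**
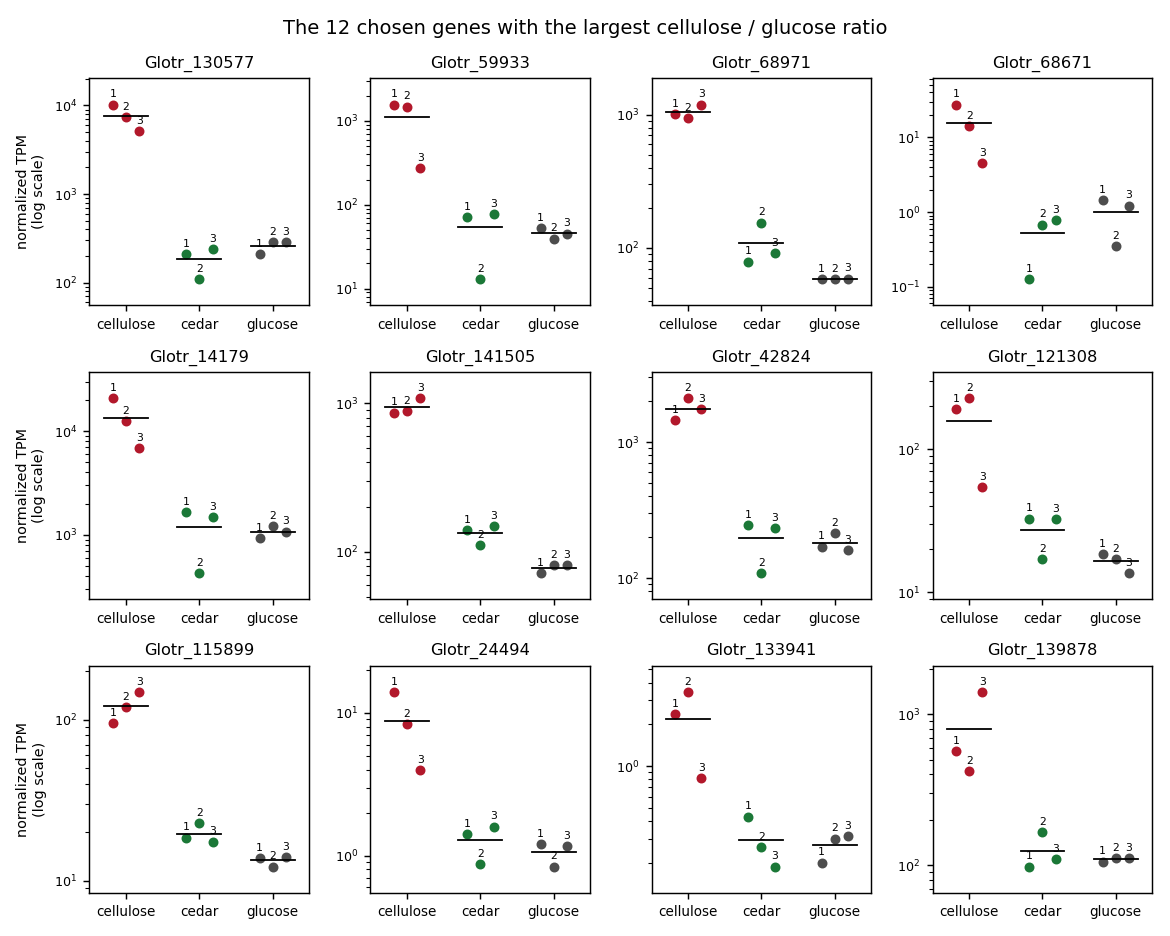
Normalized TPM (vertical, log scale) of the 12 chosen genes with the largest ratio on cellulose over glucose, in each cellulose (red), cedar (green) and glucose (grey) library, with replicate numbers above the points and group means as black bars. Every cellulose point lies above every cedar and glucose point, as the rule asked, and cellulose replicate 3 lies lowest by a wide margin in Glotr_59933, Glotr_68671, Glotr_121308 and Glotr_133941.

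Glotr_134131 and Glotr_50888 ranked 1 and 2 among all gene models on every carbon source, and Glotr_108693, the next in the set, ranked 5 on cellulose, 4 on cedar and 6 on glucose. Glotr_134131 had 377083, 508720 and 541751 TPM on cellulose, 208608, 147170 and 217837 TPM on cedar and 126986, 142891 and 79601 TPM on glucose. For Glotr_50888 the values were 211367, 325807 and 330313 TPM on cellulose, 129947, 89709 and 138638 TPM on cedar and 77976, 89773 and 49294 TPM on glucose. Glotr_108693 had 30491, 48472 and 48774 TPM on cellulose, 20413, 12946 and 21256 TPM on cedar and 13981, 14878 and 10986 TPM on glucose. No name was held for any of them. Their ratios over glucose were 4.08 for Glotr_134131, 4.0 for Glotr_50888 and 3.21 for Glotr_108693. In all of them cellulose replicate 1, cedar replicate 2 and glucose replicate 3 were the lowest of their groups.

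Together these 3 genes held between 39.3% and 54.8% of the summed TPM on cellulose, between 35.2% and 42.0% on cedar and between 20.6% and 32.1% on glucose. The other 103 chosen genes held 7.54% ± 0.85 of what remained on cellulose, 2.71% ± 0.25 on cedar and 2.12% ± 0.07 on glucose (SD, n = 3 each). The level of Glotr_134131 was between 1.56 and 1.78 times that of Glotr_50888 in all 9 libraries, although each of them varied several-fold between its lowest and highest library. Both are short, with annotated lengths, from gene start to gene end, of 274 bp for Glotr_134131 and 200 bp for Glotr_50888. TPM is divided by the length of the transcript model, which was not held here. The values of such short models depend strongly on that correction. A share of summed TPM is not a share of reads, and the share of reads on these genes is unknown.

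Both lie at the start of their annotated scaffold, within 1481 bp that hold 4 gene models. Glotr_108690, between them and also chosen, had 66.1, 43.1 and 73.4 TPM on cellulose, 22.5, 14.8 and 19.2 TPM on cedar and 12.6, 11 and 7.25 TPM on glucose, a ratio of 5.91. Glotr_50878, the fourth, met the condition on cellulose but had a cedar mean of 2.46 times the glucose mean and was not chosen. It had 232, 128 and 271 TPM on cellulose, 57.6, 33.8 and 54.8 TPM on cedar and 28.2, 21.4 and 9.78 TPM on glucose. The next 3 gene models along the scaffold, Glotr_134134, Glotr_134135 and Glotr_134136, were listed at 0 in every library. Levels within this short stretch ran over several orders of magnitude, and of its 4 models only Glotr_50878 was left out, for its level on cedar.

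Further down in level, 15 of the 106 genes had a cellulose mean of at least 1000 TPM, 66 of at least 100 TPM, and 5 were under 10 TPM. Glotr_66851 had 10048, 4501 and 4028 TPM on cellulose, 1059, 825 and 1012 TPM on cedar and 1028, 978 and 1030.2 TPM on glucose, with a ratio of 6.12 and with cedar and glucose values that overlapped. Glotr_134939 had 6634, 4728 and 3705 TPM on cellulose, 1681, 905 and 1549 TPM on cedar and 1531, 1682 and 1691 TPM on glucose, a ratio of 3.07. Glotr_139471 had 3971, 3928 and 3088 TPM on cellulose, 1438, 1135 and 1355 TPM on cedar and 1047, 1029.9 and 1168 TPM on glucose, a ratio of 3.39. These genes had high levels on glucose too, and the ratio of Glotr_66851 lay above the median of the set, those of Glotr_134939 and Glotr_139471 below it. Glotr_72014 had a mean of 1750.4 ± 247 TPM on cellulose, 479 ± 118 TPM on cedar and 429.5 ± 19.1 TPM on glucose, and Glotr_17384 one of 1445 ± 318 TPM on cellulose, 882 ± 209.6 TPM on cedar and 474 ± 9.01 TPM on glucose (SD, n = 3 each). In Glotr_17384 all cedar values lay above all glucose values and its highest cedar value came close to its lowest cellulose value.

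Transporters of the major facilitator superfamily move sugars and many other small solutes through membranes. Glotr_37730, a general substrate transporter of this family, had 134, 157 and 302 TPM on cellulose, 101, 83.3 and 98.6 TPM on cedar and 69.3, 55.1 and 67.2 TPM on glucose, a ratio of 3.10. Glotr_13228, a predicted transporter with an annotated length of only 378 bp, had 160.3, 149 and 761 TPM on cellulose, 72.3, 43.1 and 65.1 TPM on cedar and 110.4, 107 and 103 TPM on glucose. Its ratio of 3.35 became 1.45 without cellulose replicate 3, and that of Glotr_37730 became 2.28. Of the other 31 MFS and sugar transporter models with a held name that were tested, 5 were called higher on cellulose over glucose and 10 lower by limma, where 10.4% of all gene models were called higher and 13.9% lower.

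Proteins of the secretory route and of protein turnover came next. Protein disulfide isomerase joins and rearranges disulfide bonds in proteins folding in the endoplasmic reticulum. Its gene Glotr_33266 had 605, 454 and 933 TPM on cellulose, 303, 348 and 309.7 TPM on cedar and 168, 162 and 212 TPM on glucose, a ratio of 3.68 that became 2.93 without cellulose replicate 3. Bleomycin hydrolase is a cysteine peptidase of the cytosol, and Glotr_45763, named for it, had 932, 914 and 2331 TPM on cellulose, 251, 333 and 294 TPM on cedar and 170.3, 214 and 364 TPM on glucose, a ratio of 5.58 that became 3.70 without cellulose replicate 3. The cedar values of Glotr_33266 all exceeded its glucose values, and those of Glotr_45763 overlapped with them. Of 16 other peptidase models tested, 1 was called higher by limma on cellulose over glucose, where 10.4% of all gene models were, and 1 lower, where 13.9% were.

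The 1,3-beta-glucan synthase Glotr_35804, of glycosyltransferase family GT48, makes the main glucan of the fungal cell wall. Its levels were 196, 224 and 223 TPM on cellulose, 105, 109 and 110.2 TPM on cedar and 58.1, 59.2 and 57.7 TPM on glucose, with ratios of 3.68 on cellulose and 1.85 on cedar. The groups were tight and stood fully apart, with cedar between cellulose and glucose. The annotation groups Glotr_45569 with membrane anchor subunits of succinate dehydrogenase and related proteins. Succinate dehydrogenase is the enzyme shared by the citric acid cycle and the respiratory chain. Glotr_45569 had 1501, 981 and 861 TPM on cellulose, 527, 493 and 516 TPM on cedar and 369.9, 329 and 384 TPM on glucose, a ratio of 3.09. Among 48 other dehydrogenase and reductase models tested, 2 were called higher by limma on cellulose over glucose, where 10.4% of all gene models were, and 10 lower, where 13.9% were.

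Copper-fist proteins are transcription factors that in yeast bind DNA when loaded with copper. Glotr_26554, with this domain and an annotated length of 242 bp, had 364, 363 and 445 TPM on cellulose, 144, 127 and 169 TPM on cedar and 86.1, 94.2 and 119 TPM on glucose, a ratio of 3.91. Glotr_28657 is related to a protein of fission yeast that induces gluconate transport, and had 503, 410.3 and 386 TPM on cellulose, 278, 213 and 249 TPM on cedar and 145, 149 and 139 TPM on glucose, a ratio of 3.00. Both stood higher on cedar than on glucose in every library. Glotr_43396, named galactose oxidase and also a Kelch repeat protein, averaged 102 ± 14.8 TPM on cellulose, 50.4 ± 7.16 TPM on cedar and 29.8 ± 2.71 TPM on glucose, and the alpha/beta-hydrolase Glotr_38988 averaged 115 ± 34.1 TPM on cellulose, 26.6 ± 6.50 TPM on cedar and 27.1 ± 2.47 TPM on glucose (SD, n = 3 each). For Glotr_38988 the ratio on cedar was 0.981, and for Glotr_43396 it was 1.69.

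Replicates of the same gene lay farthest apart in the cellulose libraries. The coefficient of variation between replicates had a median over the 106 genes of 20.2% on cellulose, 15.7% on cedar and 8.42% on glucose, against 19.8% on cellulose, 12.2% on cedar and 10.3% on glucose over the gene models tested. Cellulose replicate 3 was more than 2 times the mean of replicates 1 and 2 in 9 genes and less than 0.5 times that mean in 12. Of the 12 genes with the largest ratios, 6 were in the low class and 1 in the high class. Over all gene models tested, 6.09% were in the high class for replicate 3 and 8.31% in the low class. For cellulose replicate 1, 6 genes were high (5.66%) and 6 low (5.66%), where 2.68% of all gene models tested were high and 6.66% low. For cellulose replicate 2, 5 genes were high (4.72%) and 5 low (4.72%), where 4.58% of all were high and 4.11% low.

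The genes high in cellulose replicate 3 were led by Glotr_105747, with 34.6, 34.7 and 202 TPM on cellulose, 23.4, 17.4 and 23.3 TPM on cedar and 16.2, 16.2 and 15.9 TPM on glucose. Glotr_128525 had 75.9, 66.1 and 334 TPM on cellulose, 40.6, 38.0 and 39.2 TPM on cedar and 35.9, 39.6 and 44.1 TPM on glucose. Glotr_111976 had 183, 147 and 619 TPM on cellulose, 70.2, 70.3 and 78.2 TPM on cedar and 83.7, 83.5 and 99.2 TPM on glucose. In these genes cellulose replicates 1 and 2 stood much nearer to the cedar values than replicate 3 did. Without replicate 3 the ratio over glucose was 2.15 for Glotr_105747, 1.78 for Glotr_128525 and 1.86 for Glotr_111976. Over the whole set, 15 genes had a ratio under 3 without cellulose replicate 3, of which 3 were under 2 (Glotr_13228, Glotr_111976 and Glotr_128525), against 10 genes under 3 without replicate 1 and 5 without replicate 2, with none under 2.

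On cedar, replicate 2 was the lowest library in 76 of the 106 genes, against 19 for replicate 1 and 11 for replicate 3. That count was not made over all gene models. Replicate 2 also had the lowest summed TPM of the cedar libraries, at 709862. Its median level was 0.818 times the mean of the other cedar replicates, and 0.969 times over all gene models tested. In 7 genes (6.6%) it was under 0.5 times that mean, where 5.14% of all gene models tested were. In the 603 gene models raised on cellulose and also on cedar, described below, its median was 0.892 times that mean, and 10.3% were under 0.5 times. With cedar replicate 2 left out, 92 of the 106 genes still met the rule. The part of these libraries in the choice of genes was not tested further.

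**Figure D5:**
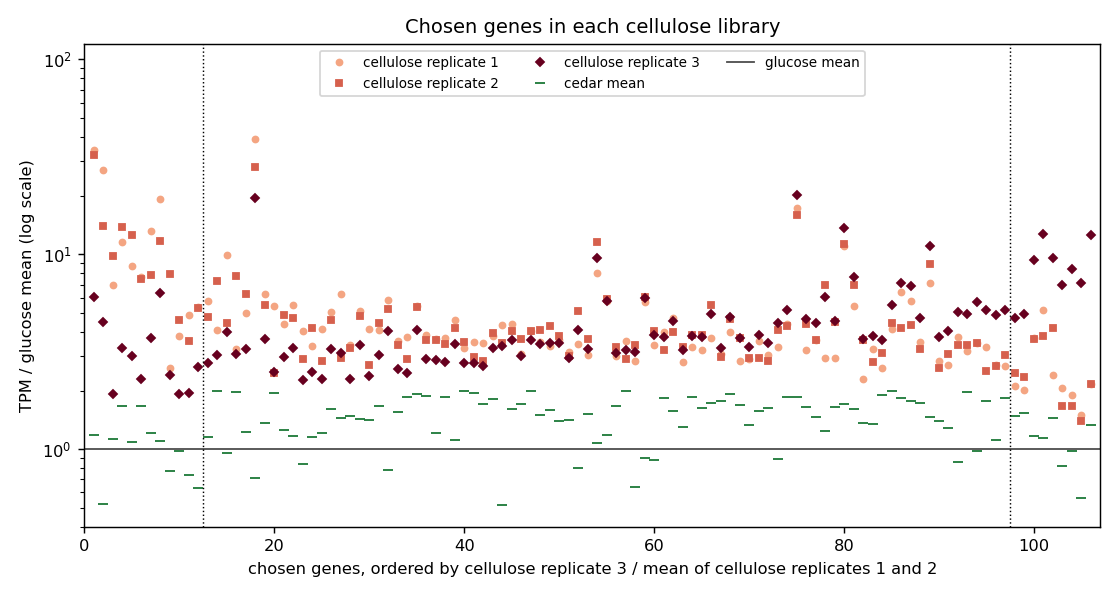
TPM in each cellulose library and mean TPM on cedar, divided by the glucose mean (vertical, log scale), for the 106 chosen genes ordered by cellulose replicate 3 over the mean of replicates 1 and 2. The 12 genes left of the first dotted line have replicate 3 under 0.5 times that mean, and the 9 right of the second have it over 2 times.

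Positions were matched for 100 of the 106 genes. Of these, 27 lay within 5 gene positions of another on the same scaffold, in 14 pairs, of which 6 were side by side. No such count was made over all gene models, so nothing is read from these counts. Besides the pairs already described, Glotr_106473 and Glotr_77669 lay side by side with a gap of 2548 bp and Glotr_29291 and Glotr_58351 with one of 4024 bp. Glotr_77669 had 98.3, 138 and 27.1 TPM on cellulose, 17.1, 11 and 19.7 TPM on cedar and 15.9, 18.6 and 7.65 TPM on glucose, whereas its neighbour Glotr_106473 had 269, 229 and 313 TPM on cellulose, 112, 96.6 and 124 TPM on cedar and 87.3, 80.4 and 79.0 TPM on glucose. Their cellulose replicates were in the opposite order, replicate 3 being the lowest in Glotr_77669 and the highest in Glotr_106473. Glotr_29291 averaged 133 ± 33.0 TPM on cellulose, 67.5 ± 3.65 TPM on cedar and 34.5 ± 0.694 TPM on glucose, and Glotr_58351 averaged 276 ± 101 TPM on cellulose, 89.3 ± 12.2 TPM on cedar and 80.5 ± 1.64 TPM on glucose (SD, n = 3 each).

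Gene models beside a chosen gene that did not meet the rule themselves numbered 181. They were screened by the same rule, so their counts leave out every neighbour that met it, and are set beside the shares over all gene models that were not chosen. In limma's fit of cellulose over glucose 26 of the 175 tested were called higher (14.9%), where 9.60% of the 10395 gene models tested and not chosen were, and 18 lower (10.3%), where 14.1% were. The difference between these shares was not tested. Without glucose replicate 1 the higher calls were 17 and without glucose replicate 2 they were 16, and with the same total they were 9. Of the 26, 16 were also called higher on cedar over glucose and 7 were called higher on cellulose over cedar. On cellulose over cedar 13 of 174 neighbours tested were called higher (7.47%), where 5.38% of all not chosen were.

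Glotr_138434, 332 bp from Glotr_115899, was among these 7, with 103, 106 and 126 TPM on cellulose, 18.8, 14.4 and 20.6 TPM on cedar and 9.33, 6.81 and 8.79 TPM on glucose. Its log2 fold change was 3.68 ± 0.16 (SE) on cellulose over glucose at an adjusted p of 1.3e-05, and 2.62 ± 0.17 over cedar at an adjusted p of 0.000521. None of the 17 alternatives ended either call. It missed the rule because its cedar mean was 2.16 times the glucose mean. Glotr_131138, 88 bp from Glotr_100742, had the largest change over glucose among the called neighbours, with 22.1, 30.6 and 12.2 TPM on cellulose, 7.77, 3.95 and 7.52 TPM on cedar and 0.322, 0.222 and 0.219 TPM on glucose. Its log2 fold change was 4.78 over glucose at an adjusted p of 5.9e-05 on the log2(TPM + 0.5) scale, which understates the change of a gene this low on glucose, while Glotr_100742 itself had a ratio of 3.36. Glotr_38410, named a topoisomerase acting in meiosis, lies 45 bp from Glotr_137763 and had 17.5, 19.5 and 17.1 TPM on cellulose, 5.98, 4.61 and 6.68 TPM on cedar and 1.54, 1.77 and 2.75 TPM on glucose. Its chosen neighbour Glotr_137763 had 93.9, 114 and 124 TPM on cellulose, 25.8, 23.9 and 25.3 TPM on cedar and 27.6, 31.8 and 24.7 TPM on glucose. Of this pair, Glotr_38410 was called higher on cedar over glucose, with a log2 fold change of 1.32 ± 0.21 (SE) and an adjusted p of 0.00135, and the cedar and glucose values of Glotr_137763 overlapped.

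A larger set of 603 gene models met the same conditions on cellulose over glucose with a cedar mean above 2 times the glucose mean, here with no gene model left out. Their median ratio on cellulose over glucose was 6.32, and 195 of them (32.3%) had a ratio of at least 10, against 6 of the 106 (5.66%). Their median glucose level was 7.63 TPM, against 39.7 TPM for the 106, and their median annotated length was 1602 bp, against 1653 bp for the 106 and 1476 bp over all gene models. For cellulose replicate 3, 15.9% of the 603 were in the high class and 14.1% in the low class, against 8.49% and 11.3% of the 106. The rule used the levels and ratios, and these values are a description only.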

How the data were processed

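RNA-seq libraries from 9 cultures, 3 each on cellulose, cedar and glucose, were analysed. The authors cleaned the reads with FaQCs, quantified them with kallisto 0.44.0 against JGI's filtered models of genome Glotr1_1 and normalized TPM between libraries with sleuth 0.29.0. The deposited signal values are these rescaled TPM, 1 column for each library, and 0 columns were left unused. Kallisto divides reads that match several gene models by estimation, so values of near-identical copies are uncertain. Column totals are unequal, and limma was used on log2(TPM + 0.5) as for plain TPM. The depth behind single values is unknown, and precision was taken from the 3 libraries of a group.

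Each fit (lmFit and trended eBayes of limma 3.58.1 in R 4.3.3) held the 2 groups compared. A gene model was tested where 3 of the 6 libraries reached 0.1 TPM. A call needed an adjusted p (Benjamini-Hochberg, all models tested) under 0.01 together with group means whose ratio was 2 or higher, or 0.5 or lower. The test was checked on simulated data with means and spreads taken from the glucose libraries alone. That check does not cover the wider spread of the cellulose libraries or the unequal totals. Tables and plots used Python, pandas, NumPy and matplotlib.

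The genes and lists were chosen with earlier results of these data known. The 128 gene models left out were those that the study lists in tables by family, and some others. These others were MFS transporter, esterase and glycanase genes from its lists of the most upregulated genes. Named in the text were the 12 genes with the largest ratio, those among the 12 with the highest cellulose mean, those with a held name, side-by-side pairs, the genes nearest each threshold, called neighbours, and, chosen after their values were seen, the genes that depart most in cellulose replicate 3 and the hydrophobin models. Family lists were made from words in the names held, and genes beside a chosen gene came from the order in the RefSeq annotation, which matched 11422 gene models by the number in the locus tag and gives no scaffold name. Promoter motifs and paralogs were not analysed here.

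Alternatives were other scalings (same total, median of ratios, quantile), an added value of 0.1 or 1, no filter or one of 1 TPM, a replicate block, all 3 groups in 1 fit, no trend, each library left out, and other limits of the rule. The same total over all gene models but Glotr_134131, Glotr_50888 and Glotr_108693 was chosen after seeing the data.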

Additional observations from a re-analysis of the deposited data

Results flagged for a closer look

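Of the gene models beside a chosen gene, 7 were called higher on cellulose over glucose and differed between cellulose and cedar in limma's test of that difference. The share of all gene models that met both was not counted. The log2 fold change of cellulose over cedar was 2.62 for Glotr_138434, 2.17 for Glotr_110493, 2.07 for Glotr_50878, 1.74 for Glotr_78970, 1.58 for Glotr_38410, 1.25 for Glotr_120992 and 1.15 for Glotr_139552. The call over cedar held in all 17 alternatives for Glotr_138434 and Glotr_110493, and was lost in 10 of 17 for Glotr_139552, 9 for Glotr_120992, 7 for Glotr_50878, 3 for Glotr_38410 and 1 for Glotr_78970. The call over glucose was lost in 7 of 17 for Glotr_78970 and 6 for Glotr_110493. With every library at the same total the value was 0.17 for Glotr_139552, 0.27 for Glotr_120992, 0.64 for Glotr_38410, 0.76 for Glotr_78970 and 1.09 for Glotr_50878. Leaving out cellulose replicate 1 or any cedar replicate ended the call of Glotr_50878, Glotr_120992 and Glotr_139552, as did leaving out cellulose replicate 2 for the last 2 of these.

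Outside the chosen set, 7 hydrophobin models were tested by limma on cellulose over cedar. Of these, 2 were called higher, where 5.38% of all gene models not chosen were, and 1 lower, where 10.8% were. The log2 fold change of cellulose over cedar was 4.22 for Glotr_18552, 2.84 for Glotr_19724 and -2.01 for Glotr_13015, and each call held in all 17 alternatives. Glotr_18552 rose on cellulose over glucose and fell on cedar over glucose, and Glotr_19724 and Glotr_13015 fell on cellulose over glucose.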

How the results depend on the processing

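The number of genes that met the rule, 106 as deposited, was 11 with the same total TPM, 67 with quantile normalization, 23 with the same total over all gene models but the 3 most abundant chosen genes, 316 with a ratio of at least 2, 26 with a ratio of at least 5 and 53 with a cedar ratio of 0.67 to 1.5. Leaving out 1 library gave between 101 and 130. Calls of higher genes on cellulose over glucose (1093) were 353 with the same total and 572 with the same total without those 3 genes. On cellulose over cedar (625) they were 141 and 185 under these scalings, 382 with no filter, and between 149 and 819 with 1 library left out, being 407 and 379 without cellulose replicates 1 and 2, and 208, 400 and 149 without cedar replicates 1, 2 and 3. On cedar over glucose (1601) all alternatives gave between 1322 and 1789. Neighbours called higher on cellulose over glucose (26) were 9 and 12 under these scalings, and between 16 and 31 with 1 library left out. With a replicate block the calls were 1047 on cellulose over glucose, 127 on cellulose over cedar, 1566 on cedar over glucose and 24 among neighbours. Deviations of same-numbered libraries from their group means had correlations between -0.39 and 0.18. With 3 libraries in each group, these values cannot settle whether the numbers pair libraries. The cause of these shifts was not tested. Of 1060 recalculations of the ratios of the 106 genes, 0 reversed one and 243 moved it by more than the spread of its cellulose replicates, and quantile normalization left Glotr_134131 and Glotr_50888 with a ratio of 1.0 and no direction. The lack of reversals is a description only, since the rule had already asked for a ratio of at least 3. Of 408 recalculated values of neighbours and hydrophobins, 58 lost a call, 5 gained one and 0 reversed.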
